A study of Homo sapiens with 6 samples.

Results

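Fc receptors bind the constant part of antibodies, and ITAM adaptors are the small membrane proteins that carry the signal of such receptors into the cell. The 10 genes described are the Fc gamma receptor genes *FCGR1A*, *FCGR2A*, *FCGR2B* and *FCGR2C*, the IgA receptor gene *FCAR*, the IgE receptor alpha chain gene *FCER1A*, the neonatal Fc receptor gene *FCGRT*, the adaptor genes *FCER1G* and *TYROBP*, and the kinase gene *SYK*. They were taken from the table by symbol, and the set was chosen with earlier results of these data known. Of the 20348 genes in the table, 9 were among these 10, since *FCGR2C* had no row, and 8 passed the filter on low counts, which left 11973 genes in all. *FCAR* was below that filter.

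The cells were MV4-11, an established human AML cell line that carries a KMT2A fusion and an internal tandem duplication of FLT3. RNA-seq of mRNA was made from 3 Control samples, which received a blank control, and 3 samples treated with 1 μM WNK463, a compound that inhibits WNK family kinases, for 48 h. All 6 samples came from this line, so they describe a single genetic background, and whether samples of a group were separate cultures is not stated. The p-values therefore measure the spread between these samples, which may be technical. Total counts lay between 14915745 and 17411780 per sample.

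In myeloid cells, Fc gamma receptors take up antibody-coated particles and immune complexes. An activating receptor either carries an ITAM in its own tail or pairs with an adaptor that does. An ITAM holds a pair of tyrosines, which Src family kinases phosphorylate and SYK then binds. The inhibitory receptor FcγRIIB carries an ITIM with a single tyrosine instead, which recruits the phosphatase SHIP1. TYROBP, also called DAP12, serves many other myeloid receptors besides.

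The signalling motifs of these genes are shown as coding sequence. Receptors without an ITAM of their own can activate through a paired adaptor, so the motif alone does not tell which members activate. The principal transcripts of GENCODE 29 on GRCh38 were searched for a tyrosine with leucine or isoleucine 3 residues after it, followed by a spacer of 6 to 12 residues and the same pattern again. The search found 1 match in each of *FCER1G*, *TYROBP*, *FCGR2A* and *FCGR2C*, and 0 in *FCGR1A*, *FCGR2B*, *FCER1A*, *FCAR*, *FCGRT* and *SYK*. Sequences are spliced, 5′ to 3′ on the coding strand, with the tyrosine codons of the motif in capitals. The last line gives the ITIM of *FCGR2B*, the only member searched for an ITIM.
FCER1G: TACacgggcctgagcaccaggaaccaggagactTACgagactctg
TYROBP: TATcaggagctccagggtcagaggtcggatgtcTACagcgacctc
FCGR2A: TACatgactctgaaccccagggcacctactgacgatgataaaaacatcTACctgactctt
FCGR2C: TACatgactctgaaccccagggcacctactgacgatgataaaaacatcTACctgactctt
FCGR2B: atcaccTATtcacttctc

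The *FCER1G* stretch lies on chr1:161218718-161218919, plus strand, across exons 4 and 5 of 5, and encodes residues 65 to 79 of 86. The *TYROBP* stretch lies on chr19:35904596-35907223, minus strand, across exons 4 and 5 of 5, and encodes residues 91 to 105 of 113. In both adaptors the spacer is 7 residues long. The *FCGR2A* stretch lies in exon 7 of 7 on chr1:161518056-161518115, plus strand, encodes residues 287 to 306 of 316, and has a spacer of 12 residues. The same 60 bases occur in exon 8 of 8 of *FCGR2C*, on chr1:161599711-161599770. The *FCGR2B* ITIM lies in exon 8 of 8 on chr1:161677488-161677505, plus strand, at residues 290 to 295 of 310.

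After WNK463, the Fc gamma receptor gene *FCGR2A*, both ITAM adaptor genes *FCER1G* and *TYROBP*, and *FCGRT* were higher, while the kinase gene *SYK* and the inhibitory receptor gene *FCGR2B* were lower. *FCGR1A* and *FCER1A* did not pass the test. Passing means an adjusted p below 0.05 in edgeR's quasi-likelihood test, adjusted over all 11973 genes. Thus 4 of the 8 tested members rose and 2 fell, beside 35.5% of all tested genes that passed as higher and 35.3% that passed as lower. The 2 groups did not overlap for 6 of the 8 members, beside 73.5% of all tested genes. Only *FCER1G* also reached a change of at least 2-fold, as did 9.62% of tested genes among the higher and 5.55% among the lower. These shares are near those of all genes, so the number of members that passed is not a result about the members. The median log2 fold change was 0.34 over the 8 tested members and 0.02 over all tested genes. In bulk RNA, fewer cells of a type and less RNA per cell cannot be told apart.

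**Figure D1:**
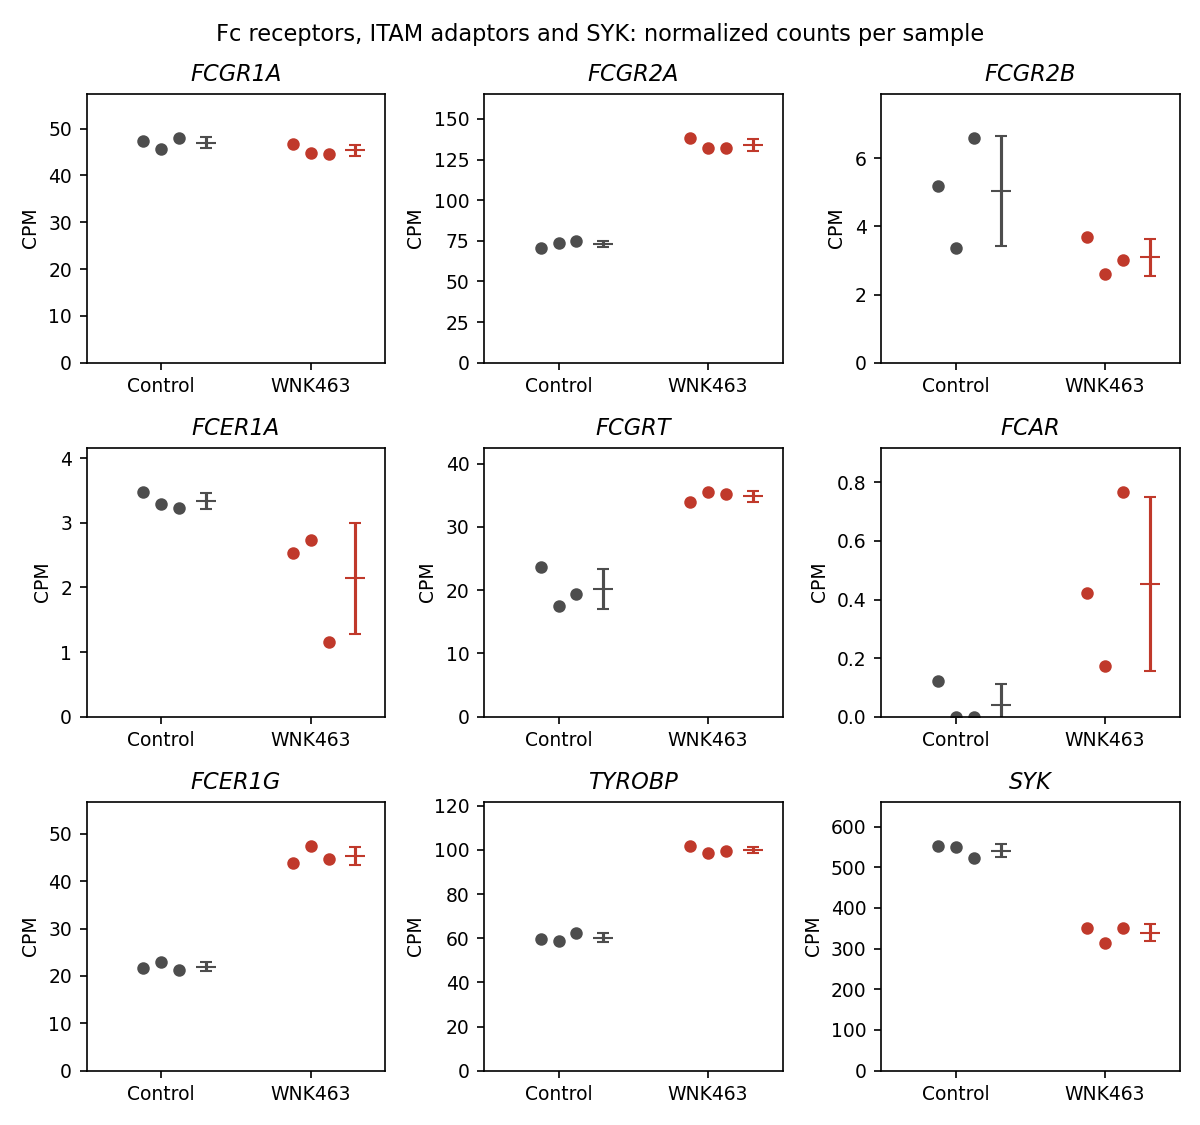
Normalized level (CPM, counts per 1000000 of the TMM-normalized library, y axis of each panel, starting at 0) of the 9 members with a row in the 3 Control and 3 WNK463 samples, where each point is a sample and the bar beside the points is the mean ± SD. The groups are apart for *FCGR2A*, *FCER1A*, *FCGRT*, *FCER1G*, *TYROBP* and *SYK* and overlap for *FCGR1A* and *FCGR2B*, while *FCAR* stays below 1 CPM in every sample.

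Levels of different genes were compared in TPM, which is per transcript length. In Control cells, *SYK* (202 ± 5.48 TPM, SD, n = 3) and *TYROBP* (199.8 ± 6.31) were the most abundant members and did not differ beyond their spread. *FCGR2A* (74.9 ± 2.55), *FCER1G* (69.1 ± 3.36) and *FCGR1A* (68.9 ± 1.62) followed at similar levels, then *FCGRT* (26.6 ± 4.82), *FCGR2B* (6.11 ± 1.89) and *FCER1A* (6.07 ± 0.325). After WNK463 the order was different. *TYROBP* stood alone at the top with 377 ± 5.70 TPM, and *FCER1G* (163 ± 7.74) and *FCGR2A* (162 ± 3.95) came next and did not differ beyond their spread. *SYK*, at 145 ± 8.11 TPM, was below both in every sample. *FCGR1A* followed with 76.0 ± 2.99 TPM, *FCGRT* with 51.8 ± 2.15, *FCGR2B* with 4.42 ± 0.792 and *FCER1A* with 4.13 ± 1.65. Ranked among all 20348 genes by mean TPM, *TYROBP* moved from place 753 to 316, *FCGR2A* from 2356 to 936, *FCER1G* from 2567 to 924 and *SYK* from 745 to 1120.

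*FCGR2A* (ENSG00000143226, chr1:161505430-161524013, plus strand) encodes FcγRIIA, an activating receptor of low affinity for IgG that signals through its own ITAM. Its level in CPM, counts per 1000000 of the TMM-normalized library, was 70.7, 73.5 and 74.7 in Control and 138, 132 and 132 after WNK463. Every treated sample was above every Control sample, with little spread in either group. The mean rose from 73.0 ± 2.03 to 134 ± 3.52 CPM (SD, n = 3), a 1.84-fold change (log2 fold change 0.88, SE 0.05, edgeR adjusted p = 7.9e-11).

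*FCGR1A* (ENSG00000150337, chr1:149782671-149792518, plus strand) encodes FcγRI, the receptor of high affinity for IgG, which has no ITAM of its own and pairs with the product of *FCER1G*. It measured 47.4, 45.6 and 47.9 CPM in Control and 46.7, 44.8 and 44.6 CPM after WNK463. The groups overlapped in CPM, with means of 47.0 ± 1.22 and 45.4 ± 1.19. In TPM they did not overlap, at 69.2, 67.1 and 70.3 in Control and 79.2, 75.5 and 73.3 after WNK463. The log2 fold change of the counts was -0.05 (SE 0.06, edgeR adjusted p = 0.47). Its sign depended on the scaling, since it was 0.10 when counts were scaled by their totals (adjusted p = 0.15) and 0.14 with limma on log2(TPM + 1) (adjusted p = 0.076). Each sample's ratio of *FCGR2A* to *FCGR1A* TPM was 1.04, 1.14 and 1.08 in Control and 2.11, 2.13 and 2.17 after WNK463. The IgG receptor with its own ITAM thus went from a level near that of *FCGR1A* to a level above it in every treated sample. This ratio was formed after the values were seen. Its exact two-sided permutation p was 0.1, the smallest that 3 against 3 samples allow.

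The promoters of *FCGR1A* and *FCGR2A* share a run of 20 bases, the longest run that any pair of member promoters shares. The next longest was 11 bases. The windows compared reach from 250 bases before to 50 bases after the start in RefSeq on GRCh38.p14, and 8 members matched with 11 windows. The 100 bases before each start are given on the plus strand, with the letters GAGGAA on the opposite strand in capitals, a purine-rich core that PU.1 is known to bind.
FCGR1A, chr1:149782594-149782693: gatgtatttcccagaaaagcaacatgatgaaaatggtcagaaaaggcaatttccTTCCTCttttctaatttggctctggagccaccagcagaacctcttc
FCGR2A, chr1:161505357-161505456: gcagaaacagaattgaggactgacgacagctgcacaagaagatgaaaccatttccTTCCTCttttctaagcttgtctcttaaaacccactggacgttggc
Shared run: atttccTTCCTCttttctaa

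The shared run lies on chr1:149782642-149782661 in *FCGR1A* and on chr1:161505406-161505425 in *FCGR2A*, and 2 of 35116 promoters hold it on either strand. Of the pair, *FCGR2A* rose and *FCGR1A* did not pass the test, as given above. Searched on both strands, GAGGAA occurs in 27.9% of the 35116 promoters, and it was found in *FCGR1A*, *FCGR2A*, *FCGRT* and *TYROBP*, in 1 of 2 windows of *FCGR2B* and in 2 of 3 windows of *SYK*. It was not found in the windows of *FCER1G* and *FCER1A*. The letters TTCNNNGAA, the core of STAT binding sites, occur in 7.66% of promoters and were found in *FCGR1A* and in 1 window of *FCGR2B*. A match of letters is a description and not a site. The level of *SPI1*, which encodes PU.1, was 218 ± 3.99 CPM in Control and 218 ± 4.46 CPM after WNK463 (log2 fold change 0.00, edgeR adjusted p = 0.97).

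*FCGR2B* (ENSG00000072694, chr1:161663147-161678654, plus strand) encodes FcγRIIB, the inhibitory receptor of the family. It had 85, 49 and 108 counts in Control and 61, 45 and 47 after WNK463, or 5.18, 3.36 and 6.59 CPM against 3.68, 2.62 and 3.00 CPM. WNK463 replicate 1 lay above the lowest Control sample, so the groups overlapped. The mean fell from 5.04 ± 1.62 to 3.10 ± 0.541 CPM (log2 fold change -0.71, SE 0.24, edgeR adjusted p = 0.014). This call rested on few samples: without Control replicate 3, which was the highest, the log2 fold change was -0.48 with adjusted p = 0.11, and without WNK463 replicate 2 it was -0.60 with adjusted p = 0.061. It was also lost with limma on log2(TPM + 1), at -0.37 and adjusted p = 0.16.

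The balance of the activating and the inhibitory low-affinity receptor was compared as the ratio of *FCGR2A* to *FCGR2B* TPM in each sample. The ratio was 11.5, 18.5 and 9.60 in Control and 31.5, 42.7 and 38.1 after WNK463. All treated samples were above all Control samples, and the mean went from 13.2 ± 4.66 to 37.4 ± 5.64, 2.84 times as high. The exact two-sided permutation p was 0.1, the smallest possible. Put as a share, *FCGR2B* made up 7.53 ± 2.19% of the summed *FCGR2A* and *FCGR2B* TPM in Control and 2.64 ± 0.402% after WNK463. The sum of the pair was 78.3, 80.9 and 83.9 TPM in Control and 172, 165 and 164 TPM after WNK463. Its groups did not overlap either, with means of 81.0 ± 2.84 and 167 ± 4.67 TPM (exact permutation p = 0.1). The log2 ratio of the sums was 1.04 in TPM and 0.81 in CPM, of which the sum in CPM does not depend on how reads were split between this pair.

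**Figure D2:**
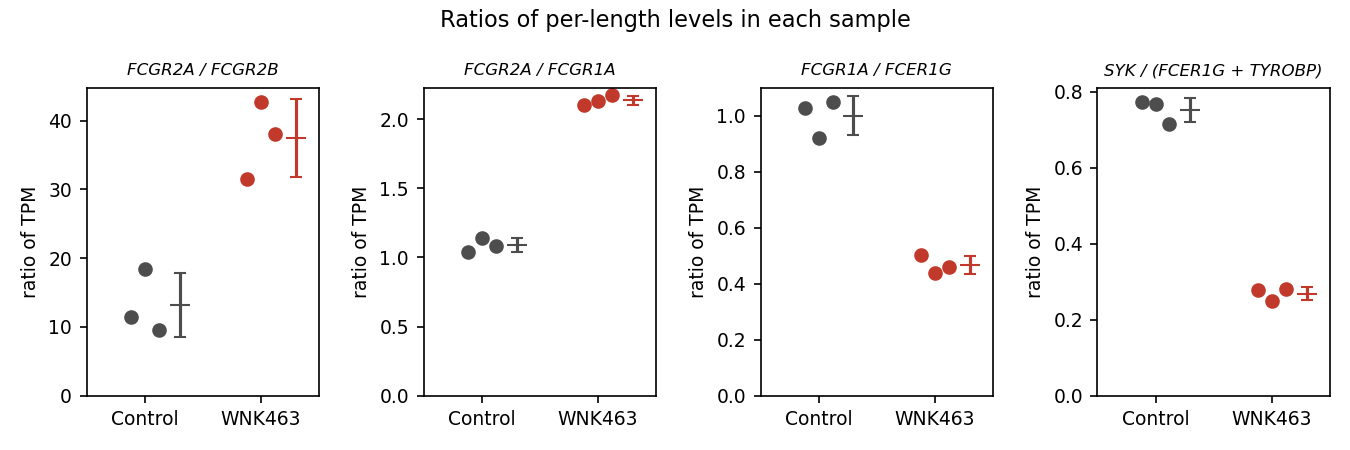
Ratio of TPM values within each of the 3 Control and 3 WNK463 samples (y axis, starting at 0) for 4 pairs of quantities, where each point is a sample and the bar is the mean ± SD. Treated samples lie above Control for *FCGR2A* over *FCGR2B* and *FCGR2A* over *FCGR1A*, and below Control for *FCGR1A* over *FCER1G* and for *SYK* over the sum of both adaptors.

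Near-identical gene copies bear on these values. Of all 100-base windows of the *FCGR2B* transcript, 28% also occur exactly in *FCGR2C* and 3.27% in *FCGR2A*. *FCGR2A* shares 8.34% of its windows with *FCGR2C* and 2.85% with *FCGR2B*, and *FCGR1A* shares 20.5% with *FCGR1CP* and 18.8% with *FCGR1B*. *FCGR2C*, *FCGR1B* and *FCGR1CP* had no row, and how reads from such windows were assigned is not given in the sources used here. The values of *FCGR2B* and *FCGR1A* are therefore uncertain in this respect, and those of *FCGR2A* less so. *FCER1G*, *TYROBP*, *SYK*, *FCGRT*, *FCAR* and *FCER1A* shared 0 such windows with any other gene. *FCGR3A* and *FCGR3B*, the genes of the FcγRIII receptors, were close to undetected, with at most 2 counts in a sample and 0 counts in all samples, respectively.

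*FCER1G* (ENSG00000158869, chr1:161215234-161220699, plus strand) encodes the Fc receptor gamma chain, the ITAM adaptor of FcγRI, FcαRI and the IgE receptor. It measured 21.7, 23.0 and 21.2 CPM in Control and 43.8, 47.4 and 44.6 CPM after WNK463. The lowest treated sample was above the highest Control sample by a wide margin. The mean rose from 21.9 ± 0.936 to 45.3 ± 1.88 CPM, 2.07-fold, the largest rise among the 8 tested members (log2 fold change 1.05, SE 0.07, edgeR adjusted p = 6.7e-10). The ratio of *FCGR1A* TPM to that of its partner chain *FCER1G* was 0.999 ± 0.0697 in Control and 0.467 ± 0.0326 after WNK463 (exact permutation p = 0.1), a comparison chosen after the values were seen.

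*TYROBP* (ENSG00000011600, chr19:35904401-35908295, minus strand) measured 59.6, 58.8 and 62.4 CPM in Control and 102, 98.7 and 99.6 CPM after WNK463. The groups did not overlap, and the mean rose from 60.3 ± 1.86 to 99.9 ± 1.49 CPM (log2 fold change 0.73, SE 0.05, edgeR adjusted p = 1.4e-09). Both adaptor genes thus rose, and *TYROBP* remained the more abundant per length, with a ratio of *TYROBP* to *FCER1G* TPM of 2.90 ± 0.203 in Control and 2.31 ± 0.129 after WNK463.

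*SYK* (ENSG00000165025, chr9:90801787-90898549, plus strand) encodes the tyrosine kinase that binds phosphorylated ITAMs through its paired SH2 domains. It measured 551, 549 and 523 CPM in Control and 352, 315 and 350 CPM after WNK463. Every treated sample was below every Control sample. The mean fell from 541 ± 16.0 to 339 ± 20.9 CPM, 1.60-fold lower (log2 fold change -0.67, SE 0.05, edgeR adjusted p = 1.5e-09). Adaptor and kinase transcripts therefore moved in opposite directions. The ratio of *SYK* TPM to the summed TPM of *FCER1G* and *TYROBP* was 0.773, 0.769 and 0.716 in Control and 0.278, 0.248 and 0.279 after WNK463 (exact permutation p = 0.1). This ratio, too, was formed after the values were seen.

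*FCGRT* (ENSG00000104870, chr19:49506816-49526333, plus strand) encodes the heavy chain of the neonatal Fc receptor, which protects IgG from lysosomal breakdown and pairs with beta-2 microglobulin. It measured 23.6, 17.5 and 19.3 CPM in Control and 33.9, 35.5 and 35.2 CPM after WNK463. The Control samples were more spread than the treated ones, and the groups did not overlap. The mean rose from 20.1 ± 3.15 to 34.9 ± 0.857 CPM (log2 fold change 0.79, SE 0.09, edgeR adjusted p = 7.4e-07). *B2M*, the gene of its partner chain, rose from 761 ± 49.2 to 1116 ± 40.5 CPM (log2 fold change 0.55, edgeR adjusted p = 2.2e-08).

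*FCER1A* (ENSG00000179639, chr1:159289714-159308224, plus strand) encodes the chain of the high-affinity IgE receptor that binds IgE, and is best known from mast cells and basophils. It had 57, 48 and 53 counts in Control and 42, 47 and 18 after WNK463, or 3.47, 3.29 and 3.23 CPM against 2.54, 2.73 and 1.15 CPM. The treated samples were all below Control, with WNK463 replicate 3 far below the rest. The log2 fold change of -0.63 (SE 0.28) missed the threshold with an edgeR adjusted p of 0.053. It lay on either side of the threshold under other settings: with no filter on low counts it was -0.64 with adjusted p = 0.036, without WNK463 replicate 2 -0.84 with adjusted p = 0.032, with DESeq2 -0.64 with adjusted p = 0.10, and without WNK463 replicate 3 -0.34 with adjusted p = 0.25. *MS4A2*, the beta chain gene of the same receptor, rose from 1.49 ± 0.458 to 5.34 ± 0.813 CPM (log2 fold change 1.85, edgeR adjusted p = 4.2e-06). Of the 3 chains of this receptor, the genes of the beta and gamma chains rose, while that of the alpha chain did not pass the test.

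*FCAR* (ENSG00000186431, chr19:54874248-54890472, plus strand), which encodes the IgA receptor FcαRI, had 2, 0 and 0 counts in Control and 7, 3 and 12 after WNK463. All treated samples were above all Control samples, but at very low levels. Summed over samples, 2 counts stood against 22, a ratio of 10.6 after scaling for library size, with an exact 95% interval of 2.59 to 92.6 that covers counting error only. With no filter on low counts, the edgeR adjusted p was 0.0079, and DESeq2 gave an adjusted p of 0.031.

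**Figure D3:**
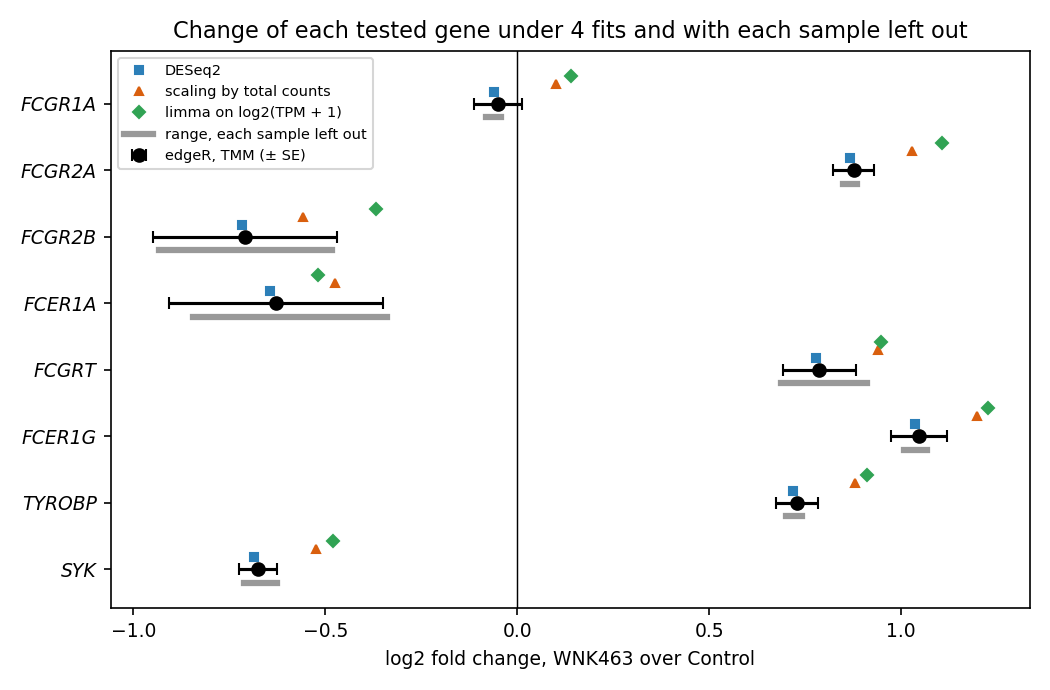
Log2 fold change (x axis, WNK463 over Control, 3 samples each) of the 8 tested members with edgeR and TMM scaling (black points, ± SE), DESeq2, scaling by total counts and limma on log2(TPM + 1), with the range over fits that leave out each sample in turn as a grey bar. Values of *FCGR2A*, *FCGRT*, *FCER1G*, *TYROBP* and *SYK* stay on their side of 0, whereas those of *FCGR1A* lie on both sides.

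Other Fc receptor genes were mostly low. Of 20 listed, 17 had a row and 8 were tested, and 5 of these rose, 2 fell and 1 did not pass. Over all tested genes, 35.5% passed as higher and 35.3% as lower. The 5 that rose include *B2M*, the gene of a partner chain and not of an Fc receptor itself, and *MS4A2*, both given above. *FCER2*, which encodes the low-affinity IgE receptor CD23, rose from 3.08 ± 0.0820 to 14.7 ± 1.47 CPM (log2 fold change 2.25, edgeR adjusted p = 1.9e-10). *PIGR*, the gene of the polymeric immunoglobulin receptor, rose from 0.541 ± 0.376 to 2.19 ± 0.296 CPM (log2 fold change 1.99, edgeR adjusted p = 2.1e-04). It had 16, 5 and 5 counts in Control and passed the filter on low counts only with the treated samples. Its place among the genes that rose is therefore partly set by that filter. *FCAMR*, which encodes a receptor for IgA and IgM, fell from 4.08 ± 1.07 to 1.76 ± 0.585 CPM (log2 fold change -1.22, edgeR adjusted p = 8.7e-04). *TRIM21*, the gene of a cytosolic Fc receptor, fell from 38.8 ± 2.27 to 32.4 ± 2.88 CPM (log2 fold change -0.26), a call that was lost when counts were scaled by their totals, at -0.11 and adjusted p = 0.22.

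Among 7 other adaptor genes of this kind, only *HCST* was tested. It encodes DAP10, which pairs with NKG2D and signals through a different tyrosine motif, and it rose from 7.28 ± 0.662 to 16.8 ± 0.981 CPM (log2 fold change 1.21, edgeR adjusted p = 3.5e-08). *KLRK1*, the gene of NKG2D, had 1, 1 and 2 counts in Control and 39, 38 and 33 after WNK463, a ratio of 26.4 over the summed counts with an exact 95% interval of 10.01 to 98.5.

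Receptors that pair with these adaptors moved both ways. Of 33 listed, 13 were tested, and 7 rose, 5 fell and 1 did not pass, with a median log2 fold change of 0.61. *KLRK1* and *SIGLEC15* passed the filter on low counts only through the treated samples, and *LILRA5* only through Control. The numbers that rose and fell, and the median, are therefore partly set by that filter. *SIGLEC14*, a DAP12-coupled sialic acid receptor gene, rose from 20.1 ± 2.11 to 39.4 ± 0.661 CPM (log2 fold change 0.97), and *OSCAR*, whose product pairs with the Fc receptor gamma chain, rose from 15.6 ± 0.570 to 26.3 ± 1.41 CPM (0.75). *PILRB* rose from 33.1 ± 3.35 to 50.3 ± 4.37 CPM (0.61). *CD300C* fell from 27.8 ± 0.670 to 7.10 ± 0.747 CPM (-1.96) and *SIRPB1*, another DAP12-coupled receptor gene, from 40.6 ± 0.608 to 12.5 ± 1.48 CPM (-1.70). *LILRA2* (-0.69) and *LILRA1* (-0.57), of activating leukocyte immunoglobulin-like receptors, fell as well. The edgeR adjusted p-values of the genes given here with a log2 fold change lay between 1.3e-11 and 9.7e-06. Genes of the SIGLEC, CD300, PILR, SIRP and LILR families have close relatives, so the split of reads between relatives is uncertain.

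Genes of kinases that act beside SYK were mostly higher, most of them by less than 2-fold. Of 16 listed genes of the Src, Syk and Tec families and their regulators, *SYK* apart, 11 were tested, and 9 rose, 1 fell and 1 did not pass, with a median of 0.42. Over all tested genes, 35.5% passed as higher and 35.3% as lower. With a change of at least 2-fold required, 2 of the 11 were higher and 0 lower, beside 9.62% and 5.55% of all tested genes. *TXK*, a Tec family kinase gene known from T cells, rose from 1.17 ± 0.329 to 20.6 ± 1.48 CPM (log2 fold change 4.14, edgeR adjusted p = 5.1e-13). *FGR*, a Src family kinase gene of myeloid cells, rose from 27.7 ± 2.90 to 61.5 ± 1.95 CPM (1.15), *TEC* from 25.5 ± 0.820 to 41.8 ± 2.23 CPM (0.71), and *SRC* from 32.4 ± 1.31 to 48.0 ± 1.15 CPM (0.56). *CSK*, which encodes the kinase that inhibits Src family members, had a log2 fold change of -0.15 (adjusted p = 0.012), and its sign turned to 0.06 with limma on log2(TPM + 1). The *CSK* call was also lost without WNK463 replicate 2 (edgeR adjusted p = 0.066).

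Effectors after SYK were split. All 34 listed were tested, 14 rose, 13 fell and 7 did not pass, with a median of -0.00. The split moved to 20 higher and 7 lower when counts were scaled by their totals. The scaffold gene *GAB2* rose from 103 ± 4.18 to 221 ± 6.21 CPM (log2 fold change 1.11), and *FYB1* (0.82), *SOS1* (0.61) and *GRB2* (0.50), all genes of adaptors or of exchange factors for Ras, rose as well. *VAV3*, of a guanine nucleotide exchange factor, fell from 34.5 ± 1.41 to 11.7 ± 1.55 CPM (-1.56), and *VAV2* (-0.49), *ELMO1* (-0.69) and *DOCK2* (-0.44), whose products act on Rac, fell too. The edgeR adjusted p-values of these 8 genes were at most 1.6e-06.

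Of 17 tested genes listed as phosphatases, adaptors and ligases that limit ITAM signalling, 8 were higher, 4 were lower and 5 did not pass. Scaled by total counts, 11 were higher and 2 lower. *PTPN22*, a phosphatase gene, rose from 19.4 ± 1.44 to 57.8 ± 2.96 CPM (log2 fold change 1.58), *UBASH3B*, which encodes a phosphatase that acts on SYK, from 20.1 ± 1.30 to 47.7 ± 1.67 CPM (1.25), *PTPRC* from 91.6 ± 9.60 to 210 ± 4.90 CPM (1.20), and *DOK2* from 73.8 ± 1.71 to 125 ± 5.61 CPM (0.76). *PTPRC* encodes CD45, which is also known to activate Src family kinases and is needed for ITAM signalling in many cells, so its place in this list is not clear-cut. *INPP5D*, which encodes SHIP1, the effector of FcγRIIB, fell from 487 ± 15.6 to 364 ± 18.8 CPM (-0.42), and *SLA*, an adaptor gene, from 65.4 ± 1.39 to 32.1 ± 1.60 CPM (-1.03). *DGKZ* (-0.27) and *PTPRJ* (-0.17) also fell, but both calls were lost with total count scaling, and *PTPRJ* changed sign to 0.01 with limma on log2(TPM + 1). The *PTPRJ* call was also lost without Control replicate 2 (edgeR adjusted p = 0.094) and without WNK463 replicate 2 (adjusted p = 0.082).

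A list of 13 other genes of ITIM-bearing myeloid receptors left out the SIGLEC and LILR families. Of these 13, 9 were tested, 7 rose, 0 fell and 2 did not pass, with a median of 0.80, beside the fall of *FCGR2B*. Over all tested genes, 35.5% passed as higher and 35.3% as lower. Of the 7 that rose, 4 reached at least 2-fold, whereas the rises of *SIRPA* (0.22) and *LAIR1* (0.16) were small. *CD300LF* rose from 38.8 ± 0.402 to 85.5 ± 3.20 CPM (log2 fold change 1.14), *CD300A* from 20.3 ± 1.11 to 47.1 ± 1.52 CPM (1.22), *PECAM1* from 96.9 ± 7.16 to 169 ± 6.72 CPM (0.80), and *PILRA* from 2.41 ± 0.179 to 8.59 ± 0.544 CPM (1.83). Whether *FCGR2B* differed from these genes was not tested.

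In the KEGG annotation that the table carries, Fc gamma R-mediated phagocytosis held 97 genes, 4 of them members. Of its 81 tested genes, 26 rose, 33 fell and 22 did not pass, with a median log2 fold change of -0.03. Scaled by total counts, 40 were higher and 24 lower, so the direction of the split in this set depended on the scaling. *NCF1*, of the phagocyte oxidase, rose from 142 ± 2.22 to 370 ± 13.0 CPM (1.38), a value that may include reads of its close copies. *PRKCA* rose as well (1.10), while the actin regulator gene *CFL1* fell from 1193 ± 33.1 to 738 ± 19.8 CPM (-0.69), and *MYO10* fell from 29.6 ± 1.43 to 10.6 ± 1.26 CPM (-1.48). The Fc epsilon RI pathway held 68 genes with 3 members. Of its 56 tested genes, 25 rose, 17 fell and 14 did not pass, with a median of 0.01. There *MAP2K1* rose (0.77), and *AKT1* (-0.73) and *MAPK12* (-0.87) fell.

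**Figure D4:**
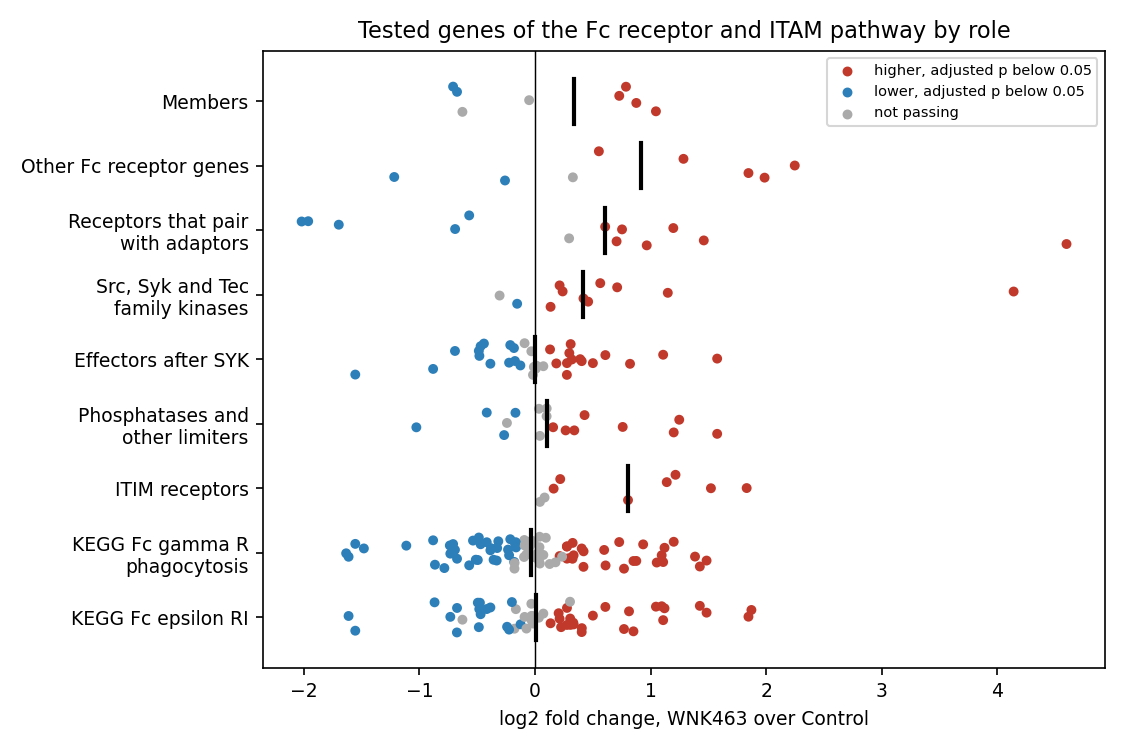
Log2 fold change (x axis, WNK463 over Control, 3 samples each) of the tested genes of each role, where each point is a gene coloured by the edgeR test and the black bar is the median of the list, with *KLRK1*, at most 2 counts in a Control sample, drawn at its fitted value. Effectors after SYK and both KEGG sets spread around 0. None of the 9 tested ITIM receptor genes, a list without the SIGLEC and LILR families, passed as lower, beside 35.3% of all tested genes.

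Markers of MV4-11 and of cell types that carry such receptors were read in the same samples. *FLT3* (369 ± 18.5 CPM in Control, 320.0 ± 3.56 after WNK463) and *CD33* (84.8 ± 4.16 and 65.3 ± 2.41 CPM) were present in both groups, as were *CSF1R* and *HOXA9*, whereas *CD14* had at most 3 counts in a Control sample and at most 10 in a treated one. Of 12 markers of the line and of myeloid blasts, 11 were tested, 7 rose, 3 fell and 1 did not pass. The largest fall was that of *MPO*, from 7.47 ± 0.423 to 1.31 ± 0.479 CPM (log2 fold change -2.50). The largest rise was that of *ITGAM*, from 5.67 ± 0.319 to 13.5 ± 1.04 CPM (1.25). Of 14 macrophage and dendritic cell markers, 8 were tested and 7 rose, beside 35.5% of all tested genes that passed as higher. *C1QA*, *C1QB* and *C1QC* passed the filter on low counts only with the treated samples, so the share that rose is partly set by that filter. The summed level of the 14 markers went from between 41.6 and 47.1 CPM to between 76.8 and 82.6 CPM. The largest parts of that sum were *CLEC10A* (21.6 ± 2.50 CPM in Control and 33.1 ± 2.98 after WNK463) and *CD83* (16.6 ± 0.144 and 22.7 ± 0.552 CPM). The complement genes of macrophages were among those that rose, with *C1QA* at 0.985 ± 0.627 CPM in Control and 13.1 ± 1.12 CPM after WNK463, *C1QC* at 0.152 ± 0.110 and 3.62 ± 0.211 CPM, and *C1QB* at no more than 1 count in a Control sample and up to 23 in a treated one. *FOLR2* rose from 0.820 ± 0.0839 to 2.32 ± 0.433 CPM, and *MARCO* did not pass. *CLEC9A* and *XCR1* were at 0 in all samples, and *CD163* and *MRC1* had at most 1 count. Of 10 mast cell, basophil and eosinophil markers, 4 were tested and all 4 rose, with sums of 5.37 to 6.39 CPM in Control and 14.4 to 15.7 CPM after WNK463. Of these 4, *TPSB2* had at most 11 counts in a Control sample and also passed the filter through the treated samples. *EPX*, below the filter, went the other way, from 0.559 ± 0.290 to 0.162 ± 0.0693 CPM, and *FCER1A*, outside this list, was lower without passing. *CPA3*, *TPSAB1*, *CLC* and *GATA1* were at 0. Of 11 T, NK and B cell markers, 2 were tested and both rose, with sums of 11.4 to 15.2 and 18.9 to 19.7 CPM, and *CD3D*, *CD3G* and *MS4A1* were at 0. Of 8 platelet and red cell markers, only *ITGA2B* was tested and it rose, with sums of 14.1 to 17.7 and 40.6 to 43.2 CPM, and 5 were at 0. The summed levels of these 4 lists of other cell types were higher after WNK463, as were *FCGR2A*, *FCER1G* and *TYROBP*. The sum of the list for the line and myeloid blasts was higher as well, at 1202 to 1254 CPM in Control and 1431 to 1449 CPM after WNK463. Single genes made up most of 2 sums, *ITGA2B* (15.9 and 41.6 CPM) for platelets and red cells and *NKG7* (11.7 and 16.1 CPM) for T, NK and B cells. The part of these lists in the results for *FCGR2A*, *FCER1G* and *TYROBP* was not tested.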

How the data were processed

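RNA-seq of MV4-11 cells was analysed for 3 Control and 3 WNK463 samples, grouped by their labels. The authors deposited 1 table with estimated counts as whole numbers and TPM values per sample. The authors also deposited group means, a log2 fold change, a p-value and its adjusted value from their own comparison, none of which was used. A count of 0 stood beside a TPM above 0 in 62 cases, so the whole numbers are probably estimates that were rounded. Per the labels, the submitters' processing notes name fastp, Bowtie2, HISAT2, StringTie, RSEM, DESeq2, edgeR and GRCh38, without versions or roles. A symbol was missing for 629 genes.

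The counts were normalized by TMM and tested across all genes with edgeR 4.0.16 (quasi-likelihood test on the group after the default low-count filter, Benjamini-Hochberg adjustment) in R 4.3.3. A gene could pass this filter through 1 group alone, which partly sets how many genes of a list rose or fell. CPM (counts per 1000000) use TMM library sizes. TMM factors were 0.944 to 0.951 in Control and 1.05 to 1.06 with WNK463, and the common biological coefficient of variation was 5.21%. Scaling by total counts instead shifted the median log2 fold change of all genes from 0.02 to 0.17. Ratios of TPM were tested by exact two-sided permutation. A fold change against a group with at most 3 counts per sample was given as a ratio of summed counts with an exact 95% interval.

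The members and gene lists were chosen with earlier results of these data known. Named were all members and, from each role list, the 4 genes per direction with the smallest p among those passing, and from each KEGG set 2 per direction that no other list holds, together with *FCGR3A* and *FCGR3B*. Marker genes, *SPI1* and the genes given only for how they passed the filter were named with values in view. Alternatives were DESeq2 1.42.0, limma 3.58.1 on log2(TPM + 1) and log2(TPM + 0.1) for genes with at least 0.5 TPM in 3 samples, scaling by total counts, other filters and thresholds, the replicate number as a block, and fits without each sample. The scripts were tested on simulated data with known changes. Sequences were read from GENCODE 29 on GRCh38 and from RefSeq promoters on GRCh38.p14. Promoters of *FCAR* and *FCGR2C* are not shown.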

Additional observations from a re-analysis of the deposited data

How the results depend on the processing

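Of 104 combinations of a tested member and an alternative, 93 kept their direction and their side of the threshold, 4 lost the call, 4 gained one and 3 changed direction. *FCGR2A* (log2 fold change 0.85 to 1.12), *FCER1G* (1.01 to 1.24), *FCGRT* (0.69 to 0.97), *TYROBP* (0.70 to 0.91) and *SYK* (-0.71 to -0.48) kept their call in all 13 alternatives. *FCGR1A* changed direction with total count scaling (0.10), limma on log2(TPM + 1) (0.14) and on log2(TPM + 0.1) (0.14), and passed in none. *FCGR2B* lost its call with limma on log2(TPM + 1) (-0.37) and log2(TPM + 0.1) (-0.43), and ranged from -0.93 to -0.48 with a sample left out. *FCER1A* passed with no filter on low counts (-0.64), with a minimum of 10 counts per sample (-0.61), with the replicate block (-0.68) and without WNK463 replicate 2 (-0.84, edgeR adjusted p = 0.032), and ranged from -0.84 to -0.34 with a sample left out. The number of members that rose went from 4 to 1 when a 2-fold change was required. The number that fell went from 2 to 1 with either limma fit and at an adjusted p below 0.01, to 0 with the 2-fold requirement, and lay between 1 and 2 with a sample left out. The log2 ratio of the summed *FCGR2A* and *FCGR2B* level was 1.04 in TPM and 0.81 in CPM. The causes were not tested. Over all genes, 4251 rose and 4222 fell, against 5525 and 3123 with total count scaling and 5045 and 2582 with limma on log2(TPM + 1). With log2(TPM + 0.1), 2531 fell. For the gene lists, 235 of 270 counts stayed within 1.5 times their value.

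Deviations from the group means were not shared by samples of equal replicate number (correlations 0.01, 0.03 and -0.07), so the numbers were not taken as pairs. With the replicate block, 4223 genes rose and 4175 fell, and no member other than *FCER1A* changed its call (edgeR adjusted p = 0.035). Adding *FCGR2C* to the *FCGR2B* level was not run, since it had no row. With 3 samples per group, an exact permutation test of a single value cannot go below p = 0.1, and *FCAR* and *FCER1A* are limited by counts.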
